A study of Mus musculus with 12 samples.

Results

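The mucosal chemokines examined here were 8 genes chosen by name, namely Ccl25, Ccl28, Ccl20, Ccl6, Cxcl12, Cxcl14, Cxcl16 and Cx3cl1, out of 53715 genes in the deposited table. All 8 passed the filter on low counts and were among the 16558 genes tested. RNA was sequenced from ileal and colonic mucosa of Slc39a8-IEC KO mice, labelled Slc39a8-fl/fl:Villin-Cre, and of control mice, labelled Slc39a8-fl/fl. Slc39a8 encodes a metal transporter that carries manganese into intestinal epithelial cells, and the Villin promoter drives Cre in the epithelium, so the other cells of the mucosa keep the gene. The mice were 8-week-old males on the C57BL/6J background, with 3 libraries for each of the 4 combinations of tissue and genotype, each from the mucosa of 1 mouse. No library came from treated mice. The labels give the floxed genotype to every control, whereas the study's methods describe its controls more broadly, and whether an ileal and a colonic library shared a mouse was not given in the sources used here.

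Chemokines are small secreted or membrane-bound proteins that direct leukocytes through G protein-coupled receptors. In the gut, epithelial and stromal cells make chemokines without any infection, and these place lymphocytes and myeloid cells in the mucosa of each segment. Ccl25 is the small intestinal ligand of the homing receptor Ccr9, and Ccl28 attracts antibody-secreting cells through Ccr10 and also binds Ccr3. Ccl20 is the ligand of Ccr6 and is known from the epithelium over lymphoid follicles. Ccl6 is a rodent CC chemokine that acts through Ccr1. Cxcl12 is a stromal ligand of Cxcr4 and Ackr3, and Cxcl14 is a homeostatic chemokine whose receptor is less settled. Cxcl16 and Cx3cl1 are anchored in the membrane, bind Cxcr6 and Cx3cr1, and are released by the proteases Adam10 and Adam17.

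The promoters of the 4 members that differed between ileum and colon in at least one genotype, had an entry in the RefSeq table used and had no annotated exon in the window are shown first. The table matched 7 of the 8 members, with 2 start sites for Ccl25, and each window is the 250 bases before a start site on the gene's own strand in build GRCm38.p6. Searched on both strands were the TATA box TATAAA, the caudal-type site TTTATG known from intestinal transcription factors of the Cdx family, the GATA site GATAA and the NF-kB site, written as GGG and CC with any 5 bases between them. Capitals mark the matches.
Ccl25, second start, chr8:4349338-4349587, plus strand: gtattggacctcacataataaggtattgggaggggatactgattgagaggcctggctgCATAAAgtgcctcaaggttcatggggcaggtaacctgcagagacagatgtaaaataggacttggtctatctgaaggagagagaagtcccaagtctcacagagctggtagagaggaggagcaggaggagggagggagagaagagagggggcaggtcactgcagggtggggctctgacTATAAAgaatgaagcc
Ccl20, chr1:83116516-83116765, plus strand: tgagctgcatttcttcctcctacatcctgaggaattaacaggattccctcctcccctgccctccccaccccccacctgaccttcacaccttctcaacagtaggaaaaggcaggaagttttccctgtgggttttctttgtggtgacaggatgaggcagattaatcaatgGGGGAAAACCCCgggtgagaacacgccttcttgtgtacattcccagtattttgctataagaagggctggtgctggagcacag
Ccl6, chr11:83593088-83593337, minus strand: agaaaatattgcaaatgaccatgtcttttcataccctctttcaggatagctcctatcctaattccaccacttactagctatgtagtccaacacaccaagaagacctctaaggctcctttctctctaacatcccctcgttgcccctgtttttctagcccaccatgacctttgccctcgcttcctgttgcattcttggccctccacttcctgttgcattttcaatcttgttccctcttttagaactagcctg
Cxcl12, chr6:117168285-117168534, plus strand: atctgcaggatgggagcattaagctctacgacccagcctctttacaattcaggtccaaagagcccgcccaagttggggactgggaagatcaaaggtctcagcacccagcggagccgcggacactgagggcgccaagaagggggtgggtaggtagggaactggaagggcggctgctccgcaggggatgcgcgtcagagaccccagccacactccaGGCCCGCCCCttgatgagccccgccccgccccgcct

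The Ccl25 window held TATAAA from base -16 to base -11 before the start and, on the opposite strand, a caudal-type match from base -192 to base -187. The Ccl20 window held 3 NF-kB matches that overlapped each other between bases -82 and -71, and the Cxcl12 window held 1 on the opposite strand from base -36 to base -27. No match lay in the Ccl6 window. Among 32851 windows of the same length, 12.4% held TATAAA, 10.8% held TTTATG, 22.6% held GATAA and 45.8% held the NF-kB site, so a match to the last is common. These matches describe the letters of the windows, and binding was not measured.

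The 12 libraries held 16749138 to 27903083 counts. Slc39a8 was lower in KO than in control libraries without overlap in both tissues, at 2.62 to 4.35 against 5.22 to 8.38 CPM, a count divided by its library's scaled total, in ileum and 7.34 to 11.5 against 20.04 to 20.82 CPM in colon. With ileum and colon fitted together the difference was -1.13 on the log2 scale (SE 0.17), with an adjusted p of 0.382 by edgeR's quasi-likelihood test with Benjamini-Hochberg adjustment, the test behind every adjusted p given here unless another is named. The 6 epithelial marker genes summed to 17970 to 22450 CPM in ileum and 8897 to 10150 CPM in colon. In 2 ileal libraries, control replicate 3 and KO replicate 1, the 6 smooth muscle genes summed to 34.1 and 20.1 CPM, against 1813 to 2641 CPM in the other 4 ileal libraries and 2534 to 3951 CPM in colon. These 2 libraries also held less fibroblast RNA, at 34.7 and 33.8 CPM against 265 to 525 CPM, and more B cell and follicle RNA, at 40.8 and 49.3 CPM against 2.73 to 5.49 CPM. They are called the low-muscle libraries, and results that rest on them are given with and without them.

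Levels are TMM-scaled CPM. Ccl25 (ENSMUSG00000023235.14, chr8:4325210-4360020 in GRCm38, plus strand) was the member that separated the tissues most. In ileum it stood at 1061, 632.4 and 482.9 CPM in control replicates 1 to 3 and at 449.2, 758.5 and 753.5 CPM in KO replicates 1 to 3. In colon it stood at 13.1, 11.03 and 12.9 CPM in control and at 10.4, 11.6 and 14.2 CPM in KO libraries. The lowest ileal library therefore lay far above the highest colonic one, and the genotypes overlapped in both tissues. Colonic counts of Ccl25 were at least 220 in every library, so the low colonic level was well above the limit of detection. Colon was lower than ileum by a log2 fold change of -5.88 (SE 0.35, adjusted p = 5.27e-07) in control mice and of -5.76 (SE 0.35, adjusted p = 5.66e-07) in KO mice. Mean CPM was 58.7 times higher in ileum than in colon in control mice and 54.2 times in KO mice. Among all genes tested, Ccl25 held rank 129 in control and rank 127 in KO mice for the size of its decrease from ileum to colon. The epithelial marker genes also fell in colon, all 6 in each genotype, with a median log2 fold change of -0.89 in control and -0.96 in KO mice, and the part of epithelial RNA content in the Ccl25 difference was not tested. In tissue RNA, fewer cells of a type and less RNA per cell cannot be told apart. The Ccl25 gene shares 204 exon bases with Elavl1 on the opposite strand, a ubiquitous gene at 45.5 CPM on average, and the library kit did not mark strand, so reads from these bases cannot be told apart between the genes.

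Ccl28 (ENSMUSG00000074715.3, chr13:119623819-119654359, plus strand), the ligand of Ccr10, was at similar levels in ileum and colon. Ileal libraries held 107.0, 71.1 and 41.0 CPM in control and 31.7, 84.5 and 66.7 CPM in KO mice. Colonic libraries held 68.4, 66.9 and 80.5 CPM in control and 97.3, 65.0 and 58.7 CPM in KO mice. The lowest values of all 12 were those of the low-muscle libraries, and the tissues overlapped in both genotypes. The colon-against-ileum log2 fold change was -0.02 (95% interval -0.84 to 0.80, adjusted p = 0.974) in control and 0.27 (95% interval -0.54 to 1.09, adjusted p = 0.618) in KO mice, and these intervals still allow a difference in either direction.

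Ccl20 (ENSMUSG00000026166.14, chr1:83116766-83119167, plus strand), the ligand of Ccr6, was the least abundant member by CPM in every group. Control ileum held 5.65, 4.39 and 1.78 CPM and KO ileum 1.31, 5.66 and 2.27 CPM. Control colon held 1.84, 0.815 and 2.49 CPM and KO colon 0.565, 0.466 and 1.33 CPM, from as few as 9 counts. Ileal and colonic libraries overlapped in both genotypes, narrowly in KO mice where the low-muscle ileal library lay just below the highest colonic one. Colon was lower in KO mice (log2 fold change -1.96, SE 0.67, adjusted p = 0.0462), and in control mice the value was -1.19 (SE 0.64, adjusted p = 0.191). The call in KO mice was lost without ileum KO replicate 2 (-1.18, adjusted p = 0.215), colon KO replicate 1 (-1.79, adjusted p = 0.135) or colon KO replicate 2 (-1.70, adjusted p = 0.151). Without both low-muscle libraries Ccl20 was lower in colon in both genotypes, by log2 fold changes of -1.56 (adjusted p = 0.0368) in control and -2.30 (adjusted p = 0.00654) in KO mice.

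Ccl6 (ENSMUSG00000018927.3, chr11:83587882-83593087, minus strand), a ligand of Ccr1, went the other way from Ccl25. Control ileum held 335.6, 246.3 and 313.2 CPM and KO ileum 263.5, 269.8 and 253.6 CPM. Control colon held 526.1, 580.9 and 368.5 CPM and KO colon 564.8, 548.4 and 474.7 CPM. Every colonic library was above every ileal one, and the low-muscle libraries lay among the other ileal libraries. The log2 fold change was 0.72 (SE 0.18, adjusted p = 0.0114) in control and 1.01 (SE 0.18, adjusted p = 0.00154) in KO mice, a level 1.65 and 2.02 times higher in colon. The 6 myeloid marker genes summed to 66.0 to 134.9 CPM in colon and 76.1 to 159.4 CPM in ileum, or 131.6 to 159.4 CPM in ileum without the low-muscle libraries. Of these markers 2, Itgam and Csf1r, were lower in colon in both genotypes and none was higher. Among all genes, 19.6% in control and 20% in KO mice were called lower, and 16.2% and 17.1% higher. The part of myeloid cells in the Ccl6 difference was not tested.

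Cxcl12 (ENSMUSG00000061353.11, chr6:117168535-117181367, plus strand), the ligand of Cxcr4, was also higher in colon. Control ileum held 10.4, 9.44 and 4.71 CPM and KO ileum 3.34, 9.29 and 10.8 CPM. Control colon held 18.1, 24.0 and 16.7 CPM and KO colon 16.6, 24.8 and 29.1 CPM. Colon and ileum did not overlap, and the lowest 2 ileal values were those of the low-muscle libraries. The log2 fold change was 1.27 (SE 0.41, adjusted p = 0.0387) in control and 1.58 (SE 0.41, adjusted p = 0.0141) in KO mice. Without both low-muscle libraries it was 0.97 (adjusted p = 0.00876) in control and 1.23 (adjusted p = 0.00194) in KO mice. The control call was lost when colon control replicate 2 was left out (1.09, adjusted p = 0.123). None of the 5 fibroblast and 6 smooth muscle markers passed the test between the tissues, with median log2 fold changes of 0.74 and 0.93 in control and 0.86 and 1.27 in KO mice. Without the low-muscle libraries 3 smooth muscle and 0 fibroblast markers were higher in colon of control mice (medians 0.33 and 0.23), and 4 and 1 in KO mice (medians 0.70 and 0.36). Of the 5 endothelial markers, 1 was higher in colon of control mice (Tek) and 2 in KO mice (Tek and Pecam1), with medians of 0.12 and 0.81. Without the low-muscle libraries these were Tek in control and Tek, Pecam1 and Kdr in KO mice, with medians of 0.67 and 1.16. Among all genes, 16.2% and 17.1% were called higher in colon with all 12 libraries. Without the low-muscle libraries 42.0% and 43.2% were called in either direction. The part of any of these cells in the Cxcl12 difference was not tested.

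Cxcl14 (ENSMUSG00000021508.11, chr13:56288643-56296551, minus strand) varied widely among ileal libraries. Control ileum held 11.6, 15.7 and 3.18 CPM and KO ileum 5.06, 10.4 and 10.5 CPM, the lowest of each being the low-muscle library. Control colon held 4.96, 9.49 and 6.26 CPM and KO colon 7.82, 8.38 and 9.71 CPM. The tissues overlapped in both genotypes, with log2 fold changes of -0.55 (adjusted p = 0.424) in control and -0.003 (adjusted p = 0.997) in KO mice. Without both low-muscle libraries, Cxcl14 was lower in colon of control mice by -1.003 (adjusted p = 0.00802), and in KO mice the value was -0.26 (adjusted p = 0.433).

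Cxcl16 (ENSMUSG00000018920.11, chr11:70453983-70459984, minus strand), the membrane-bound ligand of Cxcr6, was lower in colon. Control ileum held 36.4, 41.1 and 30.4 CPM and KO ileum 29.2, 40.5 and 31.1 CPM. Control colon held 18.7, 9.54 and 18.7 CPM and KO colon 7.82, 12.6 and 18.4 CPM. Colon and ileum did not overlap in either genotype, and the low-muscle libraries were the lowest of the ileal values by a small margin. The log2 fold change was -1.20 (SE 0.32, adjusted p = 0.0154) in control and -1.37 (SE 0.32, adjusted p = 0.0077) in KO mice. The epithelial marker genes were also lower in colon, with medians of -0.89 in control and -0.96 in KO mice. The part of epithelial RNA content in the Cxcl16 difference was not tested. The gene shares 552 exon bases with Zmynd15 on the opposite strand, which stood at 1.58 CPM on average.

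Cx3cl1 (ENSMUSG00000031778.13, chr8:94772009-94782427, plus strand), known as fractalkine and the ligand of Cx3cr1, was slightly lower in colon of control mice. Control ileum held 58.7, 97.4 and 58.2 CPM and KO ileum 79.1, 58.5 and 81.4 CPM. Control colon held 48.0, 49.5 and 50.6 CPM and KO colon 64.5, 50.1 and 66.1 CPM. The tissues were apart in control mice and overlapped in KO mice. The log2 fold change was -0.53 (SE 0.21, adjusted p = 0.0764) in control and -0.28 (SE 0.21, adjusted p = 0.344) in KO mice. The control call was lost in 10 of 23 alternatives, among them ileum control replicate 2 left out (-0.25, adjusted p = 0.309). The epithelial markers fell by more, with medians of -0.89 in control and -0.96 in KO mice, and their part in the Cx3cl1 difference was not tested.

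**Figure D1:**
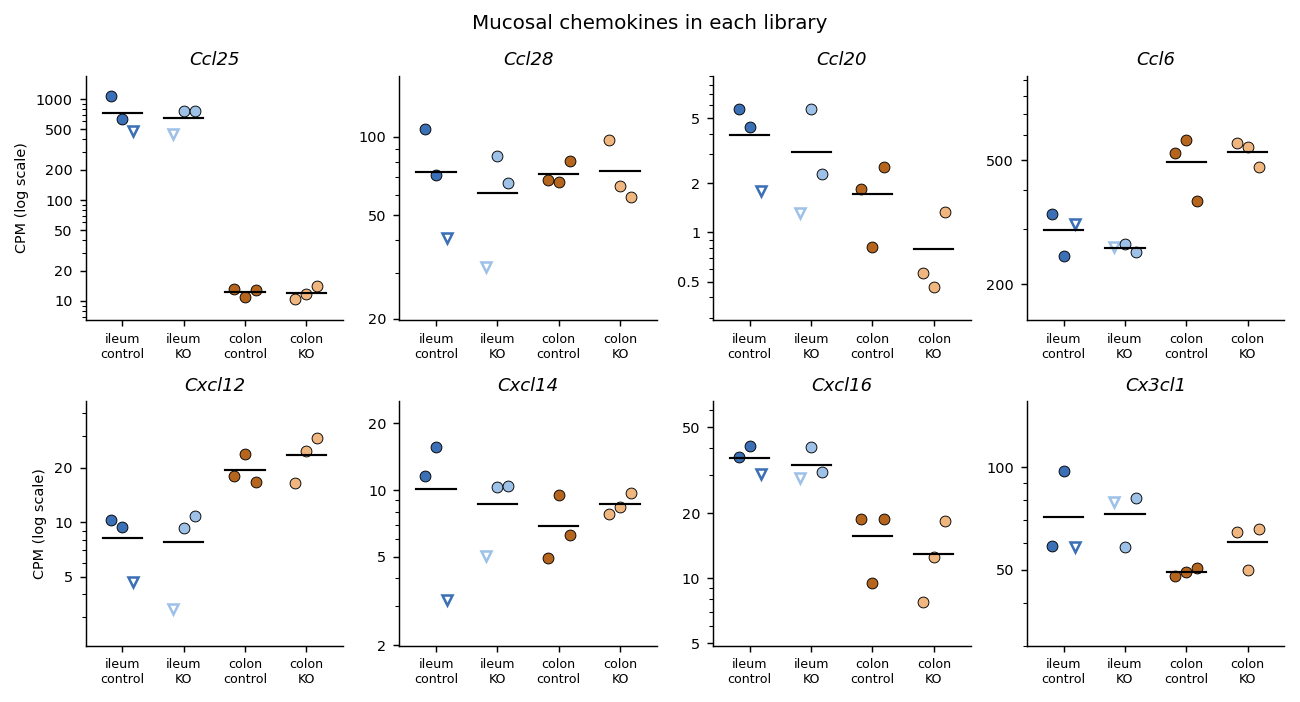
Each panel plots one chemokine in all 12 libraries as TMM-scaled CPM on a log axis, by tissue and genotype, with 1 point per library and a line at the mean of 3. Open triangles are the 2 low-muscle ileal libraries. Ccl25 falls from 449.2 CPM or more in ileum to 14.2 CPM or less in colon, and Ccl6 and Cxcl12 lie higher in every colonic library.

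Counted together, 5 of the 8 members differed between colon and ileum in control mice, 3 lower (Ccl25, Cxcl16 and Cx3cl1) and 2 higher (Ccl6 and Cxcl12), where 35.9% of all genes tested were called, 19.6% lower and 16.2% higher. In KO mice 5 of 8 differed, 3 lower (Ccl25, Cxcl16 and Ccl20) and 2 higher (Ccl6 and Cxcl12), against 37.1% of all genes, 20% lower and 17.1% higher. The median log2 fold change of the members was -0.54 in control and -0.14 in KO mice, and that of all genes was 0.02 and 0.01. With scaling by library size alone the median of all genes moved to 0.24 and 0.28, and the share of calls that were higher in colon moved from 45.3% to 66.4% in control and from 46.1% to 70.9% in KO mice. Under that scaling 4 members were called in control, without Cx3cl1, and 5 in KO mice, and every called member kept its direction under all scalings tried. Without both low-muscle libraries 7 of 8 members were called in control mice, against 42.0% of all genes, and 5 of 8 in KO mice, against 43.2%.

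Library by library, ileum and colon did not overlap for 5 members in control mice, as for 40.7% of all genes, and for 4 in KO mice, as for 50.4%. In both genotypes at once, ileum and colon did not overlap for 4 members (Ccl25, Ccl6, Cxcl12 and Cxcl16), as for 32.8% of all genes. Each of these 4 had a two-sided exact permutation p of 0.005 within genotypes, the smallest that 400 arrangements can give. Non-overlap in the same direction in both genotypes fixes this value, so for these 4 it is no further test. Cx3cl1 reached an exact permutation p of 0.015 and Ccl20 of 0.03, while Ccl28 stayed at an exact p of 0.485 and Cxcl14 at 0.735. Within one genotype, 3 libraries against 3 cannot give an exact p under 0.1.

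**Figure D2:**
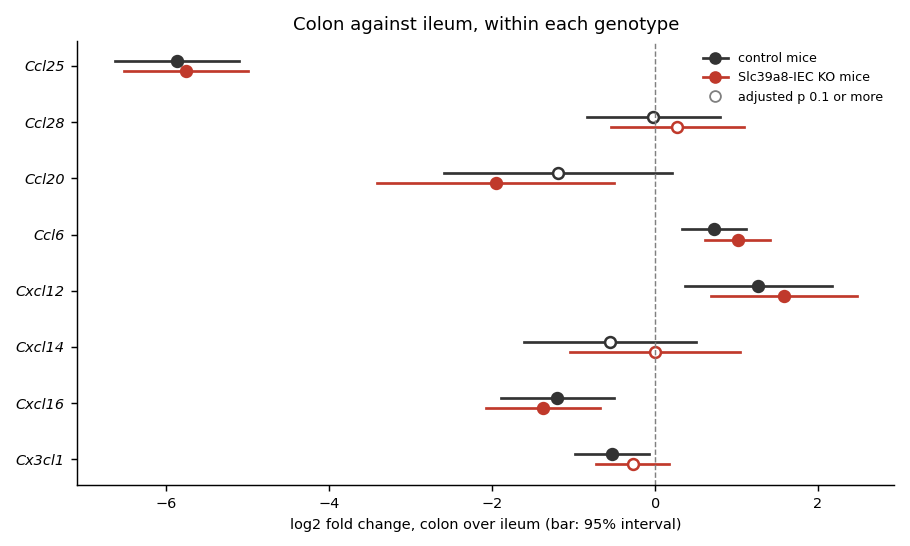
Log2 fold change of colon over ileum for each chemokine in control (black) and Slc39a8-IEC KO mice (red), with 95% intervals from the edgeR fit. Filled points passed the adjusted threshold of 0.1. Ccl25 lies near -5.9 in both genotypes, and all other members lie between -1.96 and 1.58.

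Levels of different chemokines were set side by side as CPM per kilobase of merged exons. In control ileum Ccl6 stood at 166.2 and Ccl25 at 97.4 CPM per kilobase, with overlapping libraries, and both were above all other members. Cx3cl1 at 18.2, Ccl28 at 15.1 and Cxcl16 at 11.9 CPM per kilobase formed a middle group in which neighbours overlapped. Cxcl14 at 5.56, Ccl20 at 2.77 and Cxcl12 at 0.9998 CPM per kilobase were the lowest, and neighbours again overlapped. With the longest transcript as the length, Ccl25 rose above Ccl6 in control ileum, at 284.6 against 207.2 CPM per kilobase, so the order of these neighbours depends on the length used. In control colon Ccl6 was at 274.0 CPM per kilobase and apart from all others, followed by Ccl28 at 14.8, Cx3cl1 at 12.6, Cxcl16 at 5.18, Cxcl14 at 3.78, Cxcl12 at 2.40, Ccl25 at 1.66 and Ccl20 at 1.21. By this length Ccl25 went from one of the 2 top positions in ileum to next to last in colon, while by the longest transcript it was the fifth in colon at 4.85 CPM per kilobase. Among colonic neighbours Cxcl16 overlapped Cxcl14, Cxcl14 overlapped Cxcl12 and Ccl25 overlapped Ccl20. KO ileum had the order of control ileum, from Ccl6 at 146.1 and Ccl25 at 87.8 CPM per kilobase, here without overlap, down to Cxcl12 at 0.957 CPM per kilobase. KO colon again ran from Ccl6 at 294.9 down to Ccl25 at 1.62 and Ccl20 at 0.553 CPM per kilobase, and in between Cx3cl1 at 15.3 overlapped Ccl28 at 15.2 CPM per kilobase.

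Loss of epithelial Slc39a8 was not accompanied by a detectable change in any of the 8 chemokines. Over both tissues, in ileum and in colon, 0 of 8 members passed the adjusted threshold by edgeR, DESeq2 or limma-voom, and 0 of 8 reached an unadjusted p under 0.05 with any of these tools. Over all genes, 0% were called by edgeR in each of the 3 comparisons, and 3.88% reached an unadjusted p under 0.05 over both tissues, 1.52% in ileum and 2.33% in colon. DESeq2 called 0.0143% of genes over both tissues, 0.00715% in ileum and 0% in colon, and limma-voom called 0.00604% over both tissues, 0.00604% in ileum and 0% in colon. The genotypes were apart in no member, where 0.411% of genes did not overlap in both tissues at once, 3.7% in ileum and 12.8% in colon.

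Ccl20 had the largest value among the members, a log2 fold change of -0.69 over both tissues (SE 0.45, 95% interval -1.67 to 0.28, unadjusted p = 0.147, adjusted p = 0.998). Its mean was 3.94 ± 1.97 CPM in control and 3.08 ± 2.29 CPM in KO ileum, and 1.72 ± 0.846 CPM in control and 0.786 ± 0.471 CPM in KO colon (SD, n = 3 each). In ileum both SDs exceeded the difference of the means, and in colon, where the difference exceeded each SD, the lowest control library still lay below the highest KO library. For Ccl25 the value was -0.09 over both tissues (95% interval -0.51 to 0.32), and its means of 725.5 ± 300.2 and 653.8 ± 177.1 CPM in control and KO ileum lay within 1 SD of each other. The remaining values over both tissues were -0.18 for Cxcl16 (95% interval -0.65 to 0.28), 0.16 for Cx3cl1 (-0.15 to 0.47), 0.11 for Cxcl12 (-0.49 to 0.71), -0.11 for Ccl28 (-0.67 to 0.44), 0.05 for Cxcl14 (-0.67 to 0.77) and -0.04 for Ccl6 (-0.32 to 0.24). The interval was narrowest for Ccl6, whose means were 298.3 ± 46.5 and 262.3 ± 8.16 CPM in control and KO ileum and 491.8 ± 110.2 and 529.3 ± 48.0 CPM in control and KO colon.

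The genotype effect was not shown to differ between colon and ileum for any member. Of the 8, 0 passed the adjusted threshold of the interaction and 0 reached an unadjusted p under 0.05 with edgeR, DESeq2 or limma-voom, where edgeR called 0% of all genes 1.02% had an unadjusted p under 0.05, and DESeq2 called 0.00357%. The smallest unadjusted p was that of Ccl6 at 0.273, with log2 fold changes of -0.19 in ileum and 0.11 in colon. Without ileum control replicate 3 the interaction of Cxcl14 was 0.996 (unadjusted p = 0.0454, adjusted p = 0.998), and without both low-muscle libraries 0.74 (unadjusted p = 0.0561). For the genotype effect over both tissues, Ccl20 had the smallest p of the members without both low-muscle libraries, with -0.73 (unadjusted p = 0.077, adjusted p = 0.55).

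**Figure D3:**
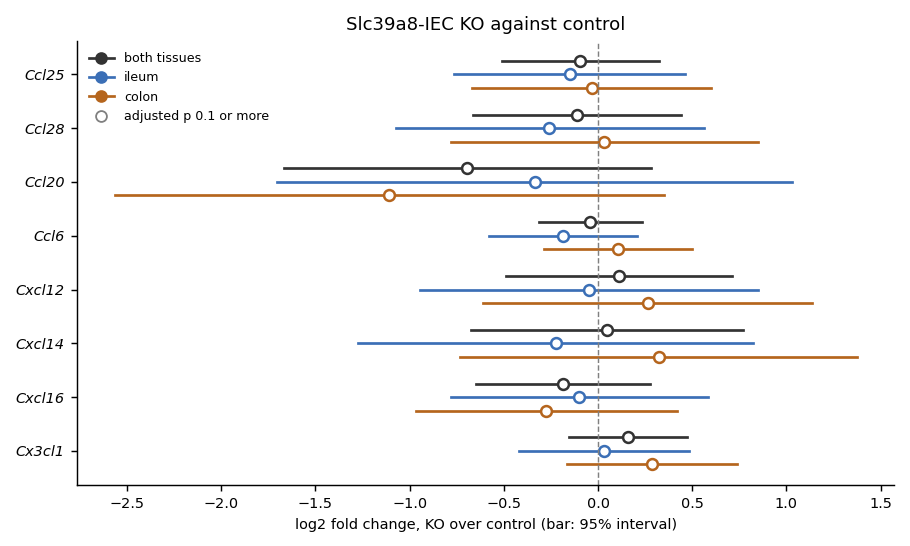
Log2 fold change of Slc39a8-IEC KO over control for each chemokine over both tissues (black), in ileum (blue) and in colon (brown), with 95% intervals from the edgeR fit. Every interval includes 0, and that of Ccl20 in colon is the widest downward, to -2.57.

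The low-muscle ileal libraries moved with 6 of the 8 chemokines. Both libraries lay below all 4 other ileal libraries for Ccl25, Ccl28, Ccl20, Cxcl12, Cxcl14 and Cxcl16, as did 27.2% of all genes, while 23.2% of all genes lay above. Their mean CPM was 0.34 times that of the other 4 for Ccl20 and Cxcl14, 0.40 times for Cxcl12, 0.44 times for Ccl28, 0.58 times for Ccl25 and 0.80 times for Cxcl16. Ccl6 and Cx3cl1 lay among the other libraries, at 1.04 and 0.93 times. Among the receptors, Ccr6 and Cxcr4, both known from B cells, were higher in these libraries, at 8.70 and 4.85 times. The Ccr6 ratio rests on values near the floor, at 0.59 and 1.01 CPM against 0.039 to 0.142 CPM. Below all other ileal libraries in both were 5 of the 11, namely Ackr4 at 0.17, Cxcr6 and Ccr1 at 0.28, Ccr9 at 0.40 and Cx3cr1 at 0.55 times. Epithelial markers summed to 17970 and 18870 CPM in the 2 libraries, against 18690 to 22450 CPM in the other 4. Each ileal genotype held 1 of the low-muscle libraries among its 3.

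**Figure D4:**
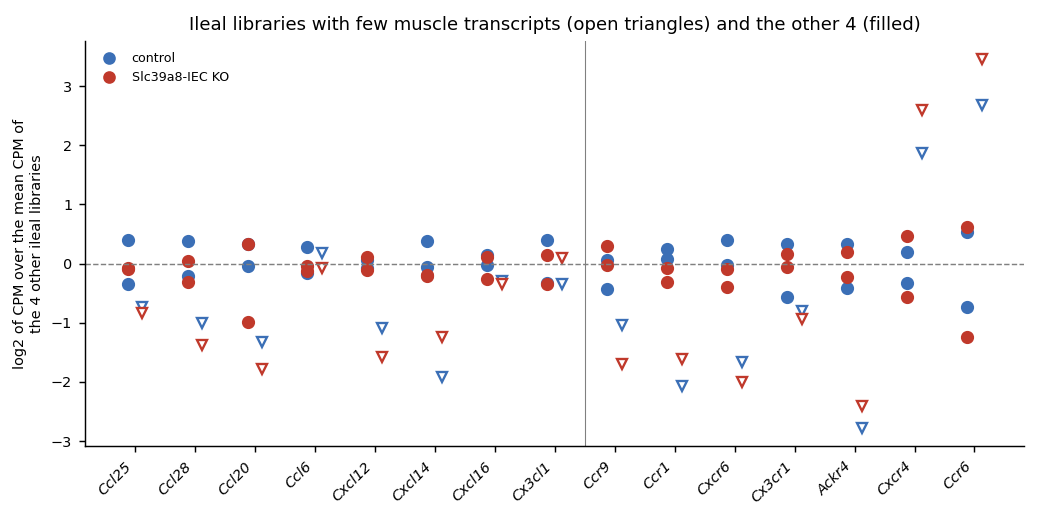
Log2 of each ileal library's CPM over the mean CPM of the 4 other ileal libraries, for the 8 chemokines (left of the line) and 7 receptors (right). Open triangles are the low-muscle libraries, control replicate 3 and KO replicate 1. They lie below the filled points for 6 chemokines and above them for Cxcr4 and Ccr6.

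Receptors and processing enzymes were read from the same fit. Of 11 receptors listed, 9 were tested, while Ccr3 and Ccr6 were too low. In control mice 3 were lower in colon (Ccr9, Cxcr4 and Cxcr6) and 1 was higher (Ackr2), and in KO mice 2 were lower (Ccr9 and Cxcr4) and 2 higher (Ackr2 and Ackr3). These 4 calls of 9 in each genotype stand beside 35.9% and 37.1% of all genes called. The median of the 9 was -0.62 in control and -0.46 in KO mice. Ccr9, the receptor of Ccl25 on gut-homing T cells, stood at 6.65, 4.72 and 3.10 CPM in control ileum and 1.97, 6.21 and 7.81 CPM in KO ileum. In colon it was at 0.819, 0.671 and 0.894 CPM in control and 0.565, 0.621 and 1.99 CPM in KO mice. It was lower in colon by -2.59 (SE 0.60, adjusted p = 0.00755) in control and -2.32 (SE 0.58, adjusted p = 0.0119) in KO mice, in the same direction as its ligand. T cell markers moved with it, at 20.5 to 61.6 CPM summed in ileum and 7.91 to 20.5 CPM in colon, and their part in the Ccr9 difference was not tested.

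Cxcr6, the receptor of Cxcl16 on T cells and innate lymphocytes, was lower in colon of control mice by -1.84 (SE 0.64, adjusted p = 0.0522), and in KO mice the value was -0.75 (SE 0.62, adjusted p = 0.393). Without both low-muscle libraries it was lower in both, by -2.27 (adjusted p = 0.00216) and -1.12 (adjusted p = 0.0643). Cxcr4, the receptor of Cxcl12, was lower by -2.25 (SE 0.89, adjusted p = 0.082) and -2.22 (SE 0.86, adjusted p = 0.0754), and both calls were lost without the low-muscle libraries (-1.32, adjusted p = 0.125, and -0.82, adjusted p = 0.297). Scaling by library size alone and limma-voom also ended both Cxcr4 calls, and limma-voom the Cxcr6 call. Ccr1, the receptor of Ccl6, and Ackr4, a scavenger of Ccl25, did not pass with all 12 libraries, though DESeq2, limma-voom and scaling by library size alone called Ackr4. Without the low-muscle libraries Ccr1 was lower in colon by -1.51 (adjusted p = 0.000181) in control and -1.14 (adjusted p = 0.00138) in KO mice, and Ackr4 was higher by 0.86 (adjusted p = 0.0239) and 0.98 (adjusted p = 0.0116). Ackr2, a scavenger of inflammatory CC chemokines, was higher in colon by 1.48 (adjusted p = 0.0696) and 1.56 (adjusted p = 0.0549), from fewer than 2 CPM in every library. Ackr3, the second receptor of Cxcl12, was higher by 1.07 (adjusted p = 0.0986) in KO mice. Without the low-muscle libraries the calls of Ackr2 in control (1.296, adjusted p = 0.145) and of Ackr3 in KO mice (0.79, adjusted p = 0.149) were lost. Ccr10 and Cx3cr1 did not pass in either genotype.

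Dpp4, a peptidase that trims the amino terminus of Cxcl12 and other chemokines, was lower in colon by -5.43 (SE 0.20, adjusted p = 2.98e-08) in control and -5.20 (SE 0.20, adjusted p = 3.99e-08) in KO mice. It stood between 1441 and 2263 CPM in ileal libraries and between 38.6 and 44.5 CPM in colonic ones. Adam10 was lower by -0.51 (adjusted p = 0.0112) and -0.63 (adjusted p = 0.00329), and Adam17 by -0.28 (adjusted p = 0.0869) and -0.31 (adjusted p = 0.0635). Scaling by library size alone ended the Adam10 call in control and the Adam17 calls in both genotypes, so these small differences depend on the scaling. Upper-quartile scaling also ended both Adam17 calls, and DESeq2 and leaving out the low-muscle libraries ended that in control mice. No receptor or enzyme was called between genotypes by edgeR, with 0 of 9 receptors and 0 of 3 enzymes past the adjusted threshold. In each comparison 0 reached an unadjusted p under 0.05, and edgeR called 0% of all genes. Adam10 in colon stood at 104.3 to 115.6 CPM in control and 86.9 to 103.3 CPM in KO libraries, without overlap. Its log2 fold change there was -0.21 (edgeR unadjusted p = 0.124). Genotypes did not overlap in colon for 12.8% of all genes.

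**Figure D5:**
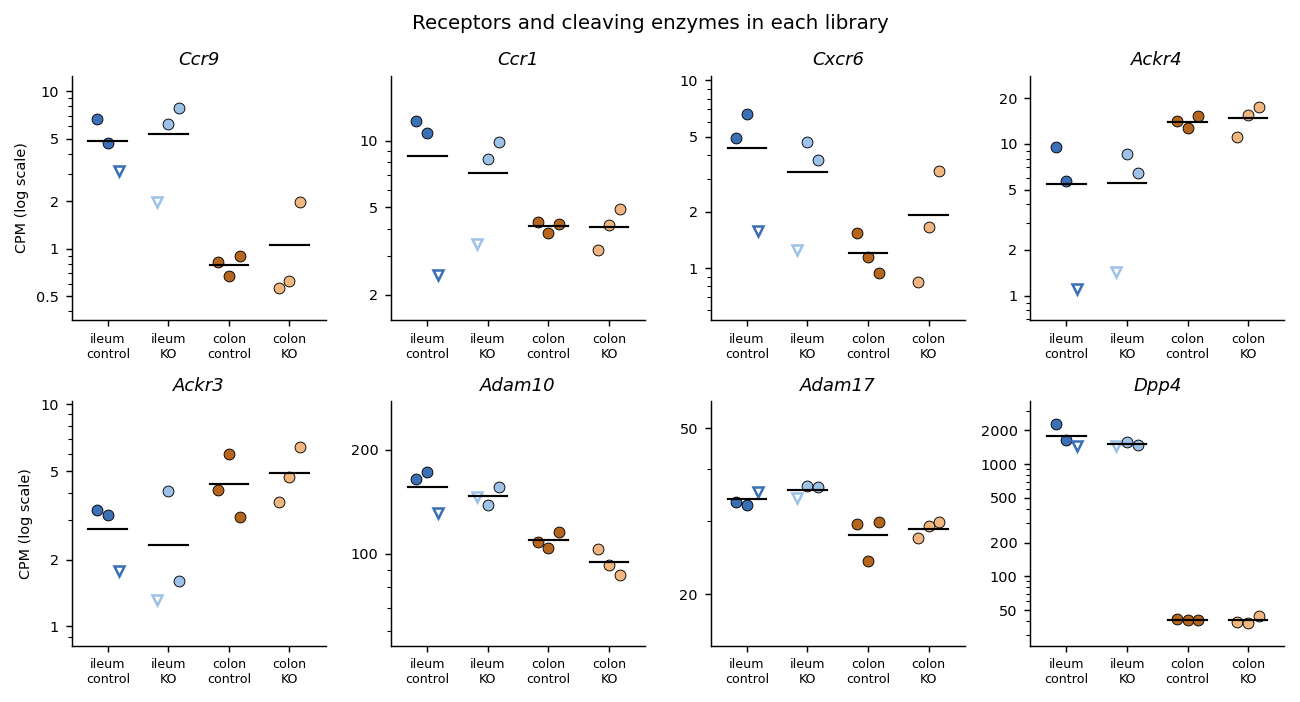
5 chemokine receptors and the 3 enzymes in all 12 libraries, as TMM-scaled CPM on a log axis with 1 point per library, a line at the mean of 3 and open triangles for the low-muscle libraries. Dpp4 drops from 1441 CPM or more in ileum to 44.5 CPM or less in colon, and Ccr9 lies at 1.99 CPM or less in colon.

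Of 29 other chemokine ligands, 20 were tested, and Ccl1 and Cxcl17 were at 0 counts in every library. In control mice 6 were lower in colon and 1 was higher, with a median of -0.19 over the 20, and in KO mice 3 were lower and 2 higher, with a median of 0.04. These 7 and 5 calls stand beside 35.9% and 37.1% of all genes called. Without the low-muscle libraries 8 were lower and 3 higher in control mice, and 8 lower and 4 higher in KO mice, of 21 tested, against 42.0% and 43.2% of all genes. Ccl11, the eosinophil chemokine eotaxin, was higher in colon by 2.14 (adjusted p = 0.0465) in control and 2.001 (adjusted p = 0.0564) in KO mice. In control mice the largest decreases were those of Ccl17 at -3.13 (adjusted p = 0.0483), Ccl22 at -2.83 (adjusted p = 0.0517), both ligands of Ccr4, and Cxcl9 at -2.72 (adjusted p = 0.0376), an interferon-induced ligand of Cxcr3. All 3 calls were lost with limma-voom. Each of Ccl17 and Ccl22 was at 6 CPM or less in every library. In KO mice the largest were those of Ccl22 at -2.59 (adjusted p = 0.0625), Ccl5 at -2.48 (adjusted p = 0.0298) and Cxcl11 at -2.16 (adjusted p = 0.0243). Ccl21a, a lymphatic chemokine with near-identical gene copies that make its counts uncertain, was higher by 1.78 (adjusted p = 0.027) in KO mice. Genotype moved 0 of the 20 past the adjusted threshold, and 0 had an unadjusted p under 0.05, over both tissues or in either by edgeR. The decrease of Ccl25 from ileum to colon was larger than that of any of these 20 ligands.

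The genes whose levels followed each chemokine most closely were ranked by Pearson's r of log2 CPM, each library taken as its deviation from its tissue's mean, over all 12 libraries. These values describe libraries that share depth and the low-muscle pair, and r without that pair is given second. Ccl25 was closest to Emilin2 (0.97, 0.92), Lypd8 (0.95, 0.88) and Rnf208 (0.95, 0.91). Ccl20 was closest to Tnip3 (0.95, 0.94), Sval1 (0.92, 0.89) and Resf1 (0.92, 0.92), and Cx3cl1 was close to Hmces (0.94, 0.94) and Slc7a7 (0.94, 0.96). Cxcl12 was closest to Calu (0.98, 0.90), Gpr65 (0.97, 0.87) and Bmp4 (0.97, 0.87), and Cxcl14 to Map7d1 (0.98, 0.91), Cuedc1 (0.97, 0.89) and Kcna2 (0.97, 0.87). Ccl28 was closest to Taf13 (0.94, 0.87), Tcaf1 (0.94, 0.72) and Kin (0.94, 0.78). Ccl6 was closest to Gm12183 (0.93, 0.94), Hdac2 (0.91, 0.93) and Gm11451 (0.90, 0.91), and Cxcl16 to Gm18853 (0.90, 0.90), Gm48624 (0.89, 0.95) and Mirt1 (0.87, 0.88). These lists depend on the centring. With the mean of each of the 4 groups subtracted instead, 0 of the 3 closest genes stayed in the top 3 for Cxcl16. For Ccl20 and Ccl6 2 stayed, and for each other member 1. Among the members themselves the 3 closest pairs were Cxcl12 with Cxcl14 (0.82, 0.57), Ccl25 with Cxcl12 (0.78, 0.26) and Ccl20 with Cxcl16 (0.77, 0.78). The Ccl25 pair fell most without the low-muscle libraries, and that of Ccl20 with Cxcl16 did not fall.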

How the data were processed

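Total RNA from ileal or colonic mucosa was converted with oligo-dT priming and a kit that does not mark strand, and the authors deposited expected counts per gene, aligned with STAR to mm10 per the labels. The study names FeatureCounts for its counts, which by default gives whole numbers, whereas the deposited values include fractions, so the tool behind them was not settled here. Counts were rounded (93.7% were already whole), and 92 spike-in rows at 0 were left out. Of 53715 gene IDs, 51464 matched GENCODE M21 with the same version and took its symbol. By ID without the version, 53620 had a symbol, which was used for the rest where present. Genes were filtered with filterByExpr over the 4 groups, scaled by TMM and fitted with edgeR 4.0.16 (R 4.3.3) over all 12 libraries, with tissue as a term for the effect over both tissues and a 4-group model otherwise. P-values were Benjamini-Hochberg adjusted over 16558 genes with a threshold of 0.1. DESeq2 1.42.0, limma 3.58.1 (voom) and other scalings, filters and left-out libraries were alternatives. Exact permutation tests were two-sided on log2(CPM + 0.5). The scripts were tested on simulated data. Named were the members, their receptors, 3 enzymes, Slc39a8, the 3 largest differences each way among other ligands, and the 3 most alike genes of each member. One of these genes is not reported here. Members and lists were chosen with earlier results of these data known. Promoters came from RefSeq. Depth was 16749138 to 27903083 counts. Counting error was larger for Ccl20, Cxcl12 and Cxcl14, with as few as 9, 56 and 75 counts, than for the other members. Intervals cover the spread between mice.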

Additional observations from a re-analysis of the deposited data

How the results depend on the processing

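The 10 tissue differences called among the 8 chemokines kept their direction under every alternative. With 1 library left out at a time, the number of members called between colon and ileum ranged from 3 to 7 in control mice and from 4 to 5 in KO mice. It fell to 3 without colon control replicate 2, where Cxcl12 and Cx3cl1 were lost, and rose to 7 without ileum control replicate 3, where Ccl20 and Cxcl14 were gained. A model with the replicate block called 4 of 8 members in control mice, since Cx3cl1 was at -0.53 (adjusted p = 0.127), and 5 in KO mice. Whether the replicate numbers pair the samples was not settled. Deviations of same-numbered libraries correlated at -0.694 to 0.404 over 18 pairs, 5 of them over 0.1. In 6 of the 18 the own number was the best match. These pairs include control against KO libraries, which cannot share a mouse. Between ileum and colon of the same genotype, r ran from -0.08 to 0.251, which neither shows nor excludes a shared mouse. Cx3cl1 in control mice was past the threshold in 13 of 23 alternatives, at adjusted p-values from 0.0261 to 0.324. Of the 38 uncalled values, 23 changed sign under some alternative. Genotype calls among members stayed at 0 throughout. Over all genes edgeR's 0 genotype calls over both tissues became 4 with DESeq2, 1 with limma-voom, 5 without both low-muscle libraries, and 0 to 1 with 1 library left out. In ileum they became 2, 1, 3 and 0 to 1, in colon 1 when the 6 colonic libraries were fitted alone, and for the interaction 1 with DESeq2. Levels per kilobase moved by more than 1 SD with the longest transcript for Ccl25 and Ccl6 in all 4 groups, which turned their order in ileum. The causes were not tested. With 3 mice per group, differences within the intervals given are not excluded. A difference can also miss the adjusted threshold where its 95% interval leaves out 0. Slc39a8, at -1.13 in KO against control over both tissues (95% interval -1.50 to -0.75), had an adjusted p of 0.382 by edgeR. Without both low-muscle libraries it stood at -1.24 and passed the threshold.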
